A study of Mus musculus with 24 samples.

Results

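Matrix metalloproteinases (MMPs) and the tissue inhibitors of metalloproteinases (TIMPs) were followed through 9 genes: the secreted proteases Mmp2, Mmp7, Mmp9 and Mmp11, the membrane-anchored proteases Mmp14 and Mmp16, and the inhibitors Timp1, Timp2 and Timp3. Every array probe that the scanner files name for one of these genes was taken, 14 probes of 41174 on the array. Mmp9, Mmp14 and Mmp16 had 2 probes each and Timp1 had 3, and probes of 1 gene are called a, b and c. All 14 probes passed the filter on dim probes, as did 35477 probes, for 24717 genes, of the whole array.

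The tissue was the urogenital sinus (UGS) of C57/Bl6J mouse embryos, the tube of endoderm and mesenchyme from which the prostate buds in males. In 2 comparisons, pregnant mice received the androgen dihydrotestosterone (DHT, 50 mg/kg) or vehicle at 16 days post coitum (dpc), and UGS was collected from the female embryos 6 h later (4 pairs of pools, 8 arrays) or 12 h later (3 pairs, 6 arrays). In the other comparison, UGS of untreated male embryos was set against that of untreated female littermates at 17.5 dpc, labelled as the 48 h time (5 pairs, 10 arrays). Sex was read from the gonads, the accessory ducts were dissected away, and each pool held RNA of several embryos, so the spread between pairs is that between pools and not between embryos. The male to female comparison shows sex and all that differs with it at that age, not a treatment.

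MMPs are zinc proteases made as inactive precursors. They cleave collagens, laminins, other matrix proteins and cell surface proteins, and TIMPs bind and block the active enzyme. MMP14 at the cell surface activates the precursor of MMP2 with the help of TIMP2, so the same inhibitor can serve activation at one dose and block it at another. In many glands MMP7, also called matrilysin, is made by epithelial cells, whereas MMP2, MMP11, MMP14 and the TIMPs are largely products of the mesenchyme.

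Of the 9 genes, 6 have a start in the RefSeq promoter table for GRCm38.p6, which holds 250 bases before and 50 after a start. The windows of Mmp7 and Mmp14 are shown because these are the genes with such a window that differed between male and female UGS. Each is written 5′ to 3′ on the strand of the gene. Capitals mark matches, on either strand, to TGAGTCA (the AP-1 element), ATCAAAG (a TCF and LEF element), AGAACA (the hexamer at the core of androgen and glucocorticoid response elements), TATAAA (the TATA box) and AGGAAG (an ETS element). No 2 of the printed matches overlap.
Mmp7, chr9:7691840-7692139, plus strand: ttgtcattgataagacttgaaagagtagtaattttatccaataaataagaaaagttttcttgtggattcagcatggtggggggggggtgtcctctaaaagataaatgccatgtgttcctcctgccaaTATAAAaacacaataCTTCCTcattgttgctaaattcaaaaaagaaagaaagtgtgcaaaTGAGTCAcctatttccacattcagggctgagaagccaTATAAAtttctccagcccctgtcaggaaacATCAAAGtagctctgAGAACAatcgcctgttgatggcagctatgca
Mmp14, chr14:54431348-54431647, plus strand: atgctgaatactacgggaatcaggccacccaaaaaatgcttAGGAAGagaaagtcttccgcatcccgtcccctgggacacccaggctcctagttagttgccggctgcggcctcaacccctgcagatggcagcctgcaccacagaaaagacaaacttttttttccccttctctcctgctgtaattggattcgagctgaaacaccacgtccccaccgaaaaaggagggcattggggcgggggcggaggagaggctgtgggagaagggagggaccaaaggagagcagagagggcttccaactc

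The printed Mmp7 window held all 5 motifs. TATAAA began at base -26 from the start and once more at -123, TGAGTCA at -63, the reverse complement of AGGAAG at -108, ATCAAAG at 4 and AGAACA at 19. Among 32851 windows of the same length in the table, TGAGTCA was in 5.2%, ATCAAAG in 3.73%, AGAACA in 19%, TATAAA in 13.6% and AGGAAG in 35.4%. Among the 6 genes only Mmp7 had the AP-1, TCF or TATA motif in a window. The table gives Mmp7 a later start too, at chr9:7692091-7692390, which overlaps the printed window and is not shown. That window held 1 match to ATCAAAG, 2 matches to AGAACA on opposite strands and 1 match to AGGAAG. Neither TGAGTCA nor the TATA motif was in it. AGAACA was also in the Mmp11 window. The Mmp14 window held AGGAAG alone, as did those of Timp1 and Timp3, and the Timp2 window held none of the 5. AGAACA followed by its inverted copy after 3 bases was in 3 windows of the table, none of them from these genes. A match is a string of letters and was not tested as a binding site.

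The median spot signal per array was 102.3 to 151.1 in Cy3 and 98.14 to 146.2 in Cy5. After signs were turned the same way, the ratios of the 2 dye-swapped arrays of a pair correlated, across probes, which are not independent, at 0.351 to 0.741 in the male to female pairs, at -0.216 to 0.0902 at 12 h and at -0.512 to -0.0776 at 6 h. The mean of both arrays was used for each pair. The vehicle pools of 6 h replicates 2, 3 and 4 went against their female label. Eif2s3y, a Y-linked gene, had levels of 8.66, 7.64 and 7.81 there, against 8.51 to 9.01 in male pools and 5.98 to 6.36 in female pools. For the 6 h ratios described below, the value of replicate 1, the pair without such RNA, is therefore given too, in runs of values as the first. Markers of UGS epithelium (14 genes), smooth muscle (7) and fibroblasts and mesenchyme (8) were each well above background on at least 1 array of every kind of pool. In bulk RNA, fewer cells of a type and less RNA per cell cannot be told apart. Per the labels, each comparison was hybridised on a day of its own, so day and comparison cannot be told apart where levels or ratios are set across comparisons.

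Between male and female UGS, 3 of the 14 probes passed an adjusted p of 0.05 in limma, with Mmp7 higher in males and probe a of Mmp16 and of Mmp14 lower. Of all 35477 probes 6.19% passed, 3.11% higher in males and 3.08% lower. At 6 h of DHT 0 of the 14 probes passed in limma, against 1.69% of all probes. An unadjusted p under 0.05 was found for 2 of the 14, those of Timp2 and Timp3. Over all probes the share was alike, at 13.6%. At 12 h 0 passed in limma, against 0.276% of all probes. There 0 of the 14 had an unadjusted p under 0.05, against 15% of all probes. Other settings of the analysis gave 0 to 2 probes at 6 h and at 12 h, as listed under the processing. The median log2 ratio of the 14 probes was -0.01 in males over females, -0.0046 at 6 h and -0.031 at 12 h.

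**Figure D1:**
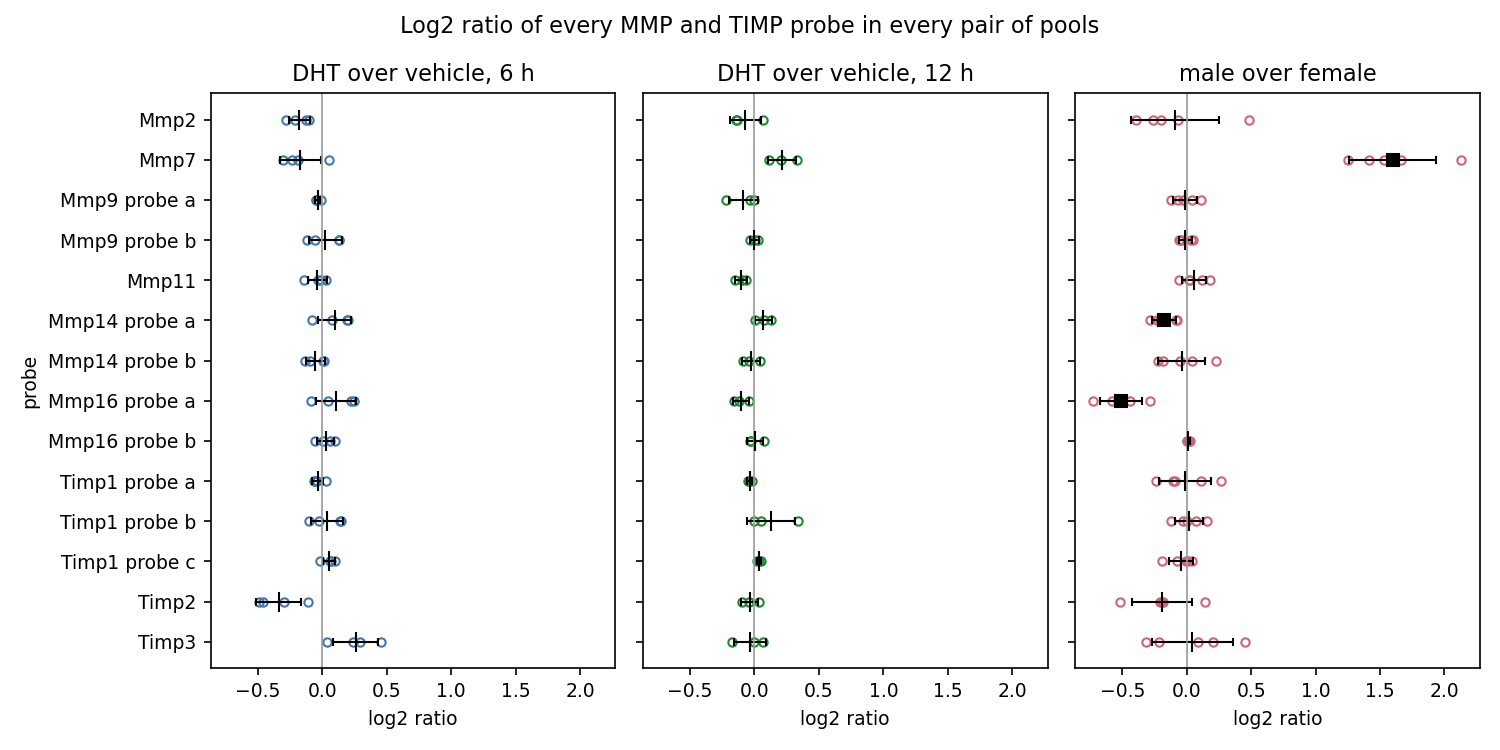
Log2 ratio (x axis) of each of the 14 probes (y axis) in every pair of pools, for DHT over vehicle at 6 h (4 pairs) and 12 h (3 pairs) and for male over female (5 pairs). Circles are pairs, black marks the mean with the SD over pairs, and black squares are probes past an adjusted p of 0.05. Mmp7 stands at 1.25 to 2.13 in the male to female pairs, and probe a of Mmp16 at -0.72 to -0.29.

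Mmp7, the matrilysin, is a small secreted protease that lacks the hemopexin domain of most MMPs. Its level, in log2 intensity, was 8.17, 8.11, 9.13, 8.60 and 8.47 in the male pools of replicates 1 to 5. In the female pools of the same pairs it was 6.92, 6.69, 7.0, 6.94 and 6.94. The lowest male pool lay above the highest female pool, and the female pools stayed close together. Within pairs the log2 ratio was 1.25, 1.42, 2.13, 1.66 and 1.53, with a mean of 1.60 (SD 0.33, n = 5), which is 3.03-fold higher in males (95% interval of the log2 ratio 1.40 to 1.80, limma adjusted p = 5.02e-07). The interval and p rest on a spread pooled over the 12 pairs of all 3 comparisons, not on the SD of these 5 pairs alone. In limma that spread is also drawn towards the spread of all kept probes. The ratio was above 0 on 10 of 10 arrays. Among all 35477 probes this ratio ranked 15 from the highest, and 53 probes were called at a ratio over 1 on the log2 scale. No pair decided the result, since the ratio without any 1 replicate and under every other setting tried lay between 1.43 and 2.36.

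Mmp7 did not pass the test in either DHT comparison. At 12 h its level was 6.48, 6.47 and 6.60 in the DHT pools against 6.37, 6.27 and 6.27 in the vehicle pools. The ratios were 0.12, 0.20 and 0.33, with a mean of 0.22 (SD 0.11, n = 3, limma adjusted p = 0.438), positive in 3 of 3 pairs and on 5 of 6 arrays. Its mean was 0.40 on the arrays without dye swap and 0.03 on the swapped ones. At 6 h the level was 6.68, 6.69, 6.82 and 6.81 with DHT and 6.62, 6.99, 7.01 and 7.05 with vehicle. The log2 ratio was 0.06 in replicate 1 and -0.30, -0.19 and -0.24 in replicates 2 to 4 (mean -0.17, SD 0.16, adjusted p = 0.565). The 3 pairs with a negative ratio were those whose vehicle pools carried Y-linked RNA, where the Eif2s3y ratios were -2.38, -1.25 and -1.58 in that order, against -0.04 in replicate 1. The part of that RNA in the Mmp7 ratio was not tested.

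The order of the mean Mmp7 levels was male (8.50, SD 0.41), vehicle at 6 h (6.92, SD 0.20), female (6.90, SD 0.12), DHT at 6 h (6.75, SD 0.08), DHT at 12 h (6.52, SD 0.07) and vehicle at 12 h (6.30, SD 0.06). Vehicle at 6 h, female and DHT at 6 h overlapped in range, and the male pools stood apart from all others. As a difference between comparisons in the same limma fit, the male to female ratio exceeded the 12 h ratio by 1.38 (adjusted p = 0.000735) and the 6 h ratio by 1.77 (adjusted p = 1.73e-05). The 12 h ratio minus the 6 h ratio was 0.39 (adjusted p = 0.281).

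**Figure D2:**
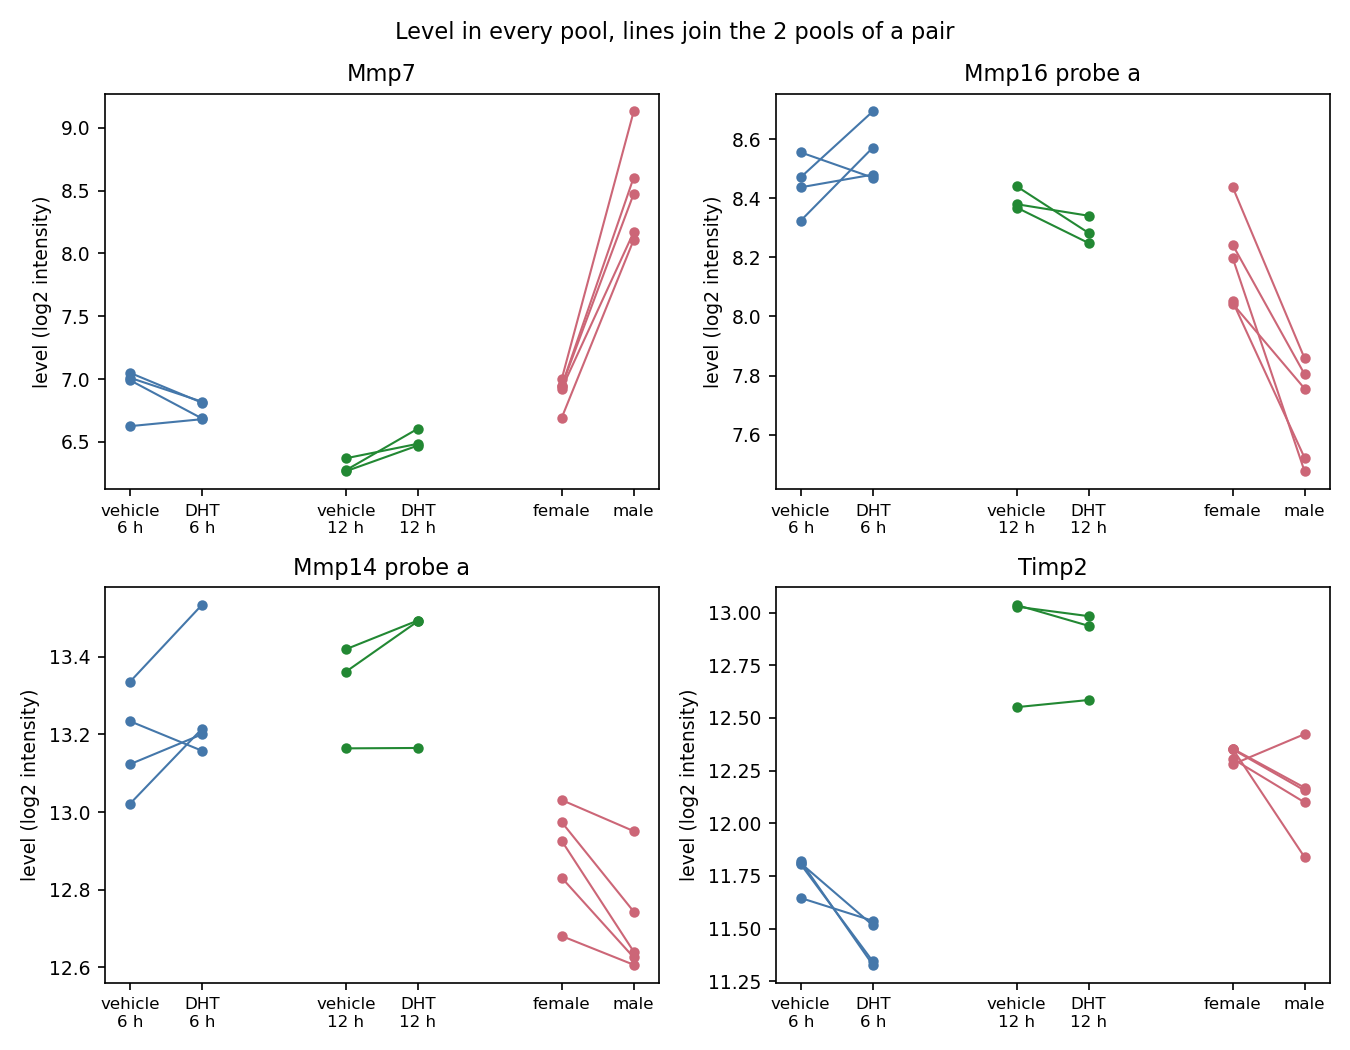
Level in log2 intensity (y axis) of Mmp7, Mmp16 probe a, Mmp14 probe a and Timp2 in every pool (x axis). Each line joins the 2 pools of a pair, 4 pairs at 6 h, 3 at 12 h and 5 male to female, and the scale differs between panels. All 5 male pools lie above all female pools for Mmp7 (8.11 to 9.13 against 6.69 to 7.0) and below them for Mmp16 probe a (7.48 to 7.86 against 8.04 to 8.44).

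Epithelial markers were higher in males as well. In males 9 of the 14 epithelial genes were called higher, and their summed log2 level was 150.9 to 155.5 in male and 146.6 to 149.3 in female pools. Each of the 14 was well above background on at least 1 array of every kind of pool. Their mean log2 ratio in replicates 1 to 5 was 0.18, 0.43, 0.58, 0.45 and 0.32, so replicate 3 was highest for the markers and for Mmp7, and replicate 1 lowest for both. The Mmp7 ratio was larger than the mean marker ratio in every male to female pair. At 12 h the mean marker ratio was -0.0011, 0.33 and 0.61, in the same order of pairs as Mmp7. At 6 h it was -0.59, -0.49, -0.11 and 0.0071, which is not the order of Mmp7. Skeletal muscle markers, 6 genes with 0 called in each comparison, shared part of this order. Their mean ratio in males over females was 0.149, -0.424, 1.51, -0.156 and 0.275, also highest in replicate 3. At 12 h it was -0.0717, 0.315 and 0.709, again in the order of Mmp7, and at 6 h -0.464, -0.327, 0.136 and -0.0012. The part of epithelial or muscle content in the Mmp7 ratio was not tested.

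**Figure D3:**
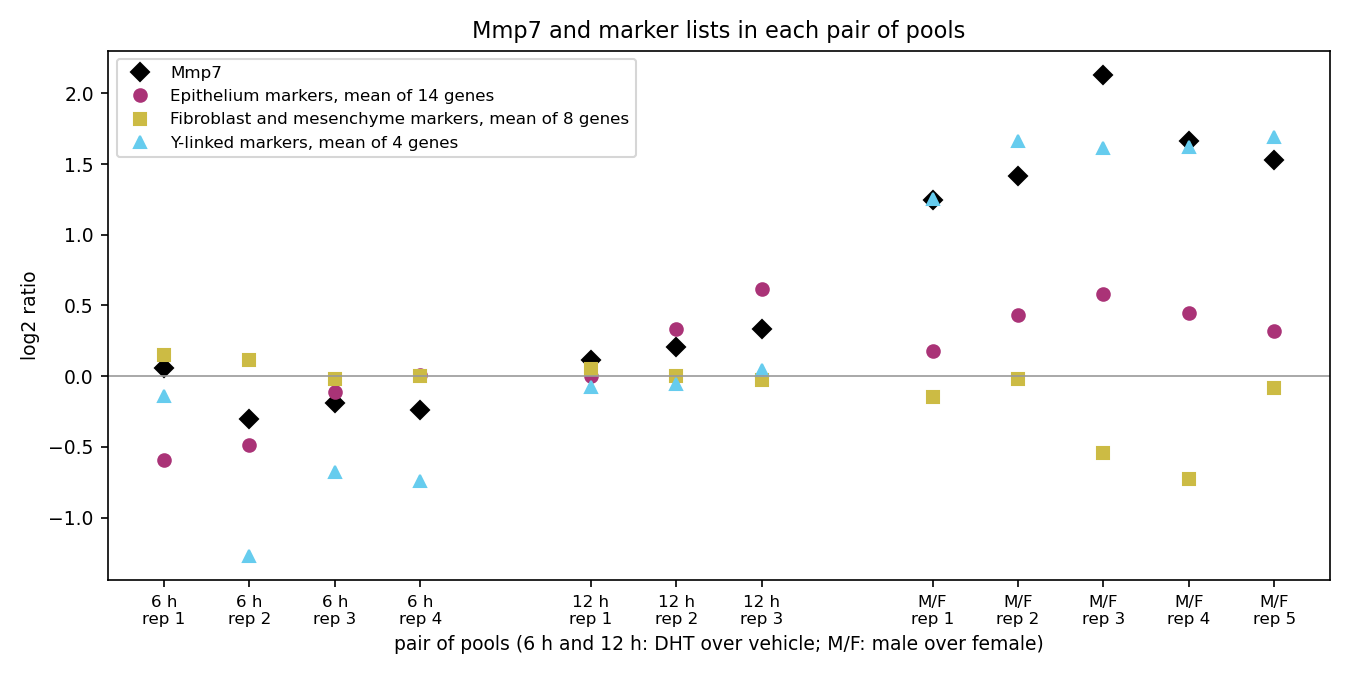
Log2 ratio (y axis) of Mmp7 and the mean log2 ratio of the epithelial (14 genes), fibroblast and mesenchyme (8 genes) and Y-linked (4 genes) markers in each of the 12 pairs of pools (x axis). In the male to female pairs Mmp7 reaches 1.25 to 2.13 while the epithelial mean is 0.18 to 0.58, and at 6 h the Y-linked mean falls to -1.27 in replicate 2.

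Over the 12 pairs, the genes whose ratios ran most like that of Mmp7 were Ly6a (r = 0.992), Slc40a1 (r = 0.989) and Ly6c1 (r = 0.988). Ly6a and Ly6c1 encode small cell surface antigens, and Slc40a1 encodes the iron exporter ferroportin. Their mean male to female log2 ratios were 1.19, 0.66 and 1.39, and in the DHT comparisons they lay between -0.13 and 0.15. With the mean of each comparison removed, r was 0.909, 0.866 and 0.866. The 12 pairs share the arrays with Mmp7 itself and fall into 3 comparisons, so these values describe the pools and carry no test.

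The other secreted MMPs did not pass the test in any comparison. Mmp2 encodes gelatinase A, which cleaves denatured collagen and type IV collagen. Its log2 ratio of male over female was -0.40, -0.07, -0.26, -0.20 and 0.49, with a mean of -0.09 (SD 0.34, n = 5, limma adjusted p = 0.767). Replicate 1 of these rests on 1 array, because the spot on its swapped array was marked an outlier. Replicate 5 stood on the other side of 0 from the other pairs, and without it the ratio was -0.23 and passed the test (adjusted p = 0.0235). At 6 h Mmp2 was lower with DHT in 4 of 4 pairs and on 8 of 8 arrays, at -0.21, -0.10, -0.28 and -0.13 (mean -0.18, SD 0.08, adjusted p = 0.515). The levels in those pools were 8.83, 9.10, 8.99 and 8.93 with DHT and 9.03, 9.21, 9.27 and 9.06 with vehicle, and the groups overlapped. At 12 h the ratio was -0.13, 0.07 and -0.14 (mean -0.07, SD 0.12, adjusted p = 0.854).

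Mmp11, or stromelysin 3, is activated inside the cell by furin and is a stromal MMP of involuting and remodelling tissues. Its level was steady over the series, with group means from 9.72 in female to 9.94 in 6 h vehicle pools. The log2 ratio was between -0.06 and 0.18 in the male to female pairs (mean 0.06, SD 0.10, limma adjusted p = 0.564), between -0.14 and 0.03 at 6 h (mean -0.04, SD 0.08, replicate 1 at -0.03) and between -0.15 and -0.06 at 12 h (mean -0.10, SD 0.05, adjusted p = 0.342). All 3 ratios at 12 h were below 0. On single dyes the Mmp11 ratio kept a sign of its own, at 0.21 on unswapped and -0.09 on swapped male to female arrays, which cancelled in the mean.

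Mmp9 encodes gelatinase B, known from neutrophils, macrophages and osteoclasts. Both of its probes lay near background. Probe a was well above it on 7 of 10 male and 9 of 10 female arrays and on 3 of 8 arrays of the 6 h DHT pools. Group means were 5.98 to 6.18 for probe a and 6.02 to 6.15 for probe b in log2 intensity. The ratios were between -0.22 and 0.13 over all pairs and both probes, and 6 h replicate 1 had -0.04 for probe a and 0.13 for probe b. Neutrophil markers, 4 genes measured, had 0 called in all 3 comparisons but scattered widely between pairs. Their mean ratio was 0.977, 0.26, -0.0559 and -0.0737 at 6 h and -0.218, 0.606 and -0.625 at 12 h. In males over females it ran from -0.176 to 0.215. Among 9 macrophage and other immune genes, 2 were called higher at 6 h, 0 at 12 h and 3 lower in males. The part of these cells in the Mmp9 ratios was not tested.

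Of the membrane-anchored enzymes, Mmp16 encodes MT3-MMP, which like MMP14 can activate the MMP2 precursor. Its probe a had levels of 7.86, 7.80, 7.52, 7.48 and 7.76 in male pools and of 8.44, 8.24, 8.05, 8.20 and 8.04 in female pools. No male pool reached the lowest female pool. Males over females gave log2 ratios of -0.58, -0.44, -0.53, -0.72 and -0.29, with a mean of -0.51 (SD 0.16, n = 5), 1.43-fold lower in males (95% interval -0.64 to -0.39, limma adjusted p = 9.88e-05). All 10 arrays were below 0, and both dye orientations gave -0.51. Under the other settings tried the ratio lay between -0.70 and -0.46 and passed the test each time.

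With DHT the ratio of Mmp16 probe a was 0.22, 0.25, -0.09 and 0.04 at 6 h (mean 0.11, SD 0.16, limma adjusted p = 0.555) and -0.04, -0.16 and -0.12 at 12 h (mean -0.11, SD 0.06, adjusted p = 0.57). It was negative on 6 of 6 arrays at 12 h. The male to female ratio was lower than the 6 h ratio by 0.62 on the log2 scale (difference -0.62, adjusted p = 0.00114), whereas its difference from the 12 h ratio, -0.41, did not pass (adjusted p = 0.0576). Per the array annotation, probe a comes from a full-length embryonic cDNA clone of the gene and probe b from its RefSeq mRNA. Probe b did not show the difference. It was well above background on 0 of 10 male and 0 of 10 female arrays, on 1 of 8 of each kind at 6 h, and on 6 of 6 of each kind at 12 h. Its male to female ratio of 0.01 therefore has only background on both sides and is no measure of the gene. At 12 h the ratio of probe b was -0.03, -0.02 and 0.08 (mean 0.0066, SD 0.06, limma adjusted p = 0.966). It was above 0 on 4 of 6 arrays there, unlike that of probe a.

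Mmp14 encodes MT1-MMP, the main cell surface collagenase and activator of MMP2. Probe a was bright, at 12.6, 12.7, 12.6, 12.6 and 13.0 in male and 12.7, 13.0, 12.9, 12.8 and 13.0 in female pools, with no saturated spot, and the groups overlapped. Within pairs males were lower each time, at -0.07, -0.23, -0.29, -0.21 and -0.08, a mean of -0.17 (SD 0.09, n = 5, 1.13-fold lower, limma adjusted p = 0.0315) with 8 of 10 arrays below 0. The call was narrow. It was lost without replicate 2 (adjusted p = 0.107), 3 (0.11) or 4 (0.119), and in 10 of 20 other settings in all. Probe b had -0.19, -0.05, -0.22, 0.04 and 0.23 (mean -0.04, SD 0.18, adjusted p = 0.852, 95% interval -0.16 to 0.08), an interval that overlaps the one of probe a (-0.27 to -0.08). Both probes are annotated to the same mRNA, and the difference between them was not tested.

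At 6 h the ratio of Mmp14 probe a was 0.19, 0.08, 0.20 and -0.08 (mean 0.10, SD 0.13, limma adjusted p = 0.429), and that of probe b had a mean of -0.05 (SD 0.07, replicate 1 at 0.0047). At 12 h the means were 0.07 (SD 0.06) and -0.03 (SD 0.07). The male to female ratio of probe a was below its 6 h ratio (difference -0.27, adjusted p = 0.0294), and its difference from the 12 h ratio was -0.24 (adjusted p = 0.128). The levels of the 2 probes ran differently across comparisons. Group means of probe b were 7.16 and 7.21 at 6 h, 8.70 and 8.73 at 12 h and 8.39 and 8.43 in males and females, while those of probe a were between 12.7 and 13.4 and highest at 12 h. Day of hybridisation and comparison cannot be told apart here.

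Markers of other tissues moved in the same male and female pools as probe a of Mmp16 and of Mmp14. Of 8 fibroblast and mesenchyme genes 3 were called lower, with a mean ratio of -0.15, -0.02, -0.54, -0.73 and -0.08 in replicates 1 to 5 and a summed level of 97.6 to 103.8 in male and 102.7 to 103.9 in female pools. Of 7 smooth muscle genes 2 were called lower, with a mean ratio of -0.06, -0.05, 0.02, -0.60 and -0.25 and a summed level of 72.36 to 78.69 in male and 75.09 to 79.03 in female pools. Mmp16 probe a was lowest in replicate 4, as were both means, but was also at -0.58 in replicate 1, where the fibroblast mean was -0.15. Of 4 duct genes 2 were called lower in males, Amhr2 of the Mullerian duct mesenchyme at -1.08 and Wnt7a of the Mullerian duct epithelium at -0.77, although ducts had been dissected away. The part of these tissues in either ratio was not tested.

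By pattern over the 12 pairs, the nearest genes to Mmp16 probe a were Abi2 (r = 0.973), Emilin2 (r = 0.961) and Armcx3 (r = 0.961), at -0.26, -0.24 and -0.22 in males over females. The nearest to Mmp14 probe a were 9530013L04Rik (r = 0.935), BC056977 (r = 0.933) and Dab2ip (r = 0.933), at -0.25, -0.17 and -0.23. Emilin2 encodes an elastic fibre protein, and Abi2 and Dab2ip encode adaptors of actin and of Ras signalling. With the mean of each comparison removed r was 0.8 to 0.921 for these 6 genes, again with no test.

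None of the 3 inhibitor genes passed the test in any comparison. Timp2, which blocks MMPs and also takes part in the activation of MMP2 by MMP14, came closest, at 6 h of DHT. Its level was 11.5, 11.3, 11.5 and 11.3 with DHT and 11.6, 11.8, 11.8 and 11.8 with vehicle. The log2 ratio was -0.11, -0.49, -0.29 and -0.46, with a mean of -0.34 (SD 0.18, n = 4, 1.26-fold lower, limma adjusted p = 0.0578). It was negative on 8 of 8 arrays, and it ranked 138 from the lowest of 35477 probes. Replicate 1, the pair whose vehicle pool had Eif2s3y at the female level, gave -0.11, the ratio nearest to 0. The 6 h ratio of Timp2 passed the test in 4 of 20 other settings, among them a fit of single arrays with a dye term (-0.34, adjusted p = 0.00241). The day of image analysis split the 6 h arrays in 2 sets of 4, with Timp2 at -0.23 on the first day and -0.44 on the second.

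At 12 h the Timp2 ratio was 0.03, -0.10 and -0.04 (mean -0.04, SD 0.07, limma adjusted p = 0.914), and its difference from the 6 h ratio was 0.30 (adjusted p = 0.283). In males over females it was -0.19, 0.14, -0.18, -0.52 and -0.21, with a mean of -0.19 (SD 0.23, n = 5, adjusted p = 0.184). Male pools ranged from 11.8 to 12.4 and female pools from 12.3 to 12.4, so the spread was on the male side. Replicate 2 was the only pair above 0, and without it the mean was -0.28 and passed the test (adjusted p = 0.0316). It also passed in the fits of single arrays with a dye term (-0.19, adjusted p = 0.038) and with the day of image analysis as a block (-0.23, adjusted p = 0.0248).

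Timp3, which is held in the matrix and also blocks ADAM17, ran the other way at 6 h. Its level was 10.3, 10.7, 10.6 and 10.5 with DHT and 10.0, 10.2, 10.3 and 10.4 with vehicle, with overlap. Its ratio was 0.24, 0.46, 0.30 and 0.04, above 0 on 8 of 8 arrays (mean 0.26, SD 0.17, n = 4, limma adjusted p = 0.261). Replicate 1 alone gave 0.24. Of 9 macrophage and other immune genes, 2 were called higher at 6 h, and their mean ratio was 0.33, 0.24, 0.14 and 0.11 in replicates 1 to 4. Their part in any of these ratios was not tested. At 12 h the Timp3 ratio was 0.07, -0.17 and -0.0026 (mean -0.03, SD 0.12). In males over females it scattered from -0.32 to 0.46 (mean 0.04, SD 0.31, adjusted p = 0.912).

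Timp1, an inducible inhibitor of most secreted MMPs, stayed near a ratio of 0. Its probe a, with group means of 8.48 to 9.06, had ratios from -0.24 to 0.26 in males over females (mean -0.01, SD 0.20, n = 5), from -0.07 to 0.03 at 6 h (mean -0.03, SD 0.04, n = 4, replicate 1 at -0.06) and from -0.05 to -0.02 at 12 h (mean -0.04, SD 0.02, n = 3). Probes b and c were dimmer, with group means between 6.31 and 6.76, and their mean ratios in the 3 comparisons were between -0.04 and 0.13. In 6 h replicate 1 they were at -0.10 and 0.07. The 95% interval of probe a for males over females was -0.13 to 0.11. Adjusted p for the 3 probes was 0.424 or higher in limma in every comparison.

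Across comparisons, 3 of the 14 probes differed between the male to female and the 6 h ratio in limma (Mmp7, Mmp14 probe a and Mmp16 probe a), against 5.67% of all probes. In 10 alternatives the count was 2. Among them were those without 6 h replicate 1, 2 or 3 and without male to female replicate 2, 3 or 4. The part of the Y-linked RNA in the vehicle pools of 6 h replicates 2, 3 and 4 was not tested. Between male to female and 12 h, 1 probe differed (Mmp7), against 1.33% of all probes, and between 12 h and 6 h 0 differed, against 0.259% of all probes. In the last of these, Mmp7 and Timp2 had an unadjusted limma p of 0.0311 and 0.0316, and 14.8% of all probes had one under 0.05.

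Other proteases and regulators of the matrix were counted in 5 lists that hold none of the 9 genes, 79 genes of which 71 were tested. In males over females 21 of the 71 were called (29.6%, against 6.19% of all probes), 5 higher and 16 lower. At 6 h of DHT 2 were called, both lower (2.82%, against 1.69% of all probes). In limma 16 had an unadjusted p under 0.05 at 6 h, in both directions (22.5%, against 13.6% of all probes). At 12 h 0 were called in limma (against 0.276%), and 7 had an unadjusted p under 0.05 (9.86%, against 15% of all probes). Each list gene is counted by its brightest probe, so the shares are not over like sets. With every gene of the array taken by its brightest probe, 1871 of 24717 were called in males over females, 412 at 6 h and 71 at 12 h. The lists were chosen with earlier results of these data known, so the shares are no test of the lists. Of 12 other MMPs 2 were lower in males, the stromelysins Mmp3 at -0.35 (SD 0.07, limma adjusted p = 2.9e-05) and Mmp10 at -0.15 (SD 0.07, adjusted p = 0.0117), and the list's median was -0.00019. Of 9 other inhibitors, inducers and activators, Reck, a membrane-anchored MMP inhibitor, was higher in males at 0.17 (SD 0.11, adjusted p = 0.0185). Cd44, the hyaluronan receptor that docks MMPs at the cell surface, was lower at -0.45 (SD 0.29, adjusted p = 0.00381), and the list's median was 0.02. In this list Furin, the protease that activates MMP11 and MMP14, was lower with DHT at 6 h, at -0.40, -0.31, -0.11 and -0.34 (mean -0.29, SD 0.13, n = 4, adjusted p = 0.0104). Replicate 1 was the lowest of these, and without replicate 1 or 2 the call was lost (adjusted p = 0.0942 and 0.0734). The test was not passed with replicate 1 as the lone 6 h pair (adjusted p = 0.168).

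ADAM and ADAMTS proteases shed surface proteins and cleave proteoglycans. Their list also held ADAMTS-like genes, whose products lack the protease domain. Of its 24 genes 3 were higher and 8 lower in males, with a median of -0.05, and ADAMTS-like genes were among those called in each direction. Adamts18 fell by 0.88 on the log2 scale (ratio -0.88, SD 0.17, limma adjusted p = 9.17e-06), Adamts19 was at -0.62, Adamts1 at -0.43 and Adamts8 at -0.42. Adam17, the shedding enzyme that TIMP3 blocks, was called lower at 6 h, at -0.38, -0.24, -0.14 and -0.24 (mean -0.25, SD 0.10, n = 4, adjusted p = 0.0403). Replicate 1 was again the lowest. The Adam17 call was lost without any 1 of the 4 pairs (adjusted p = 0.0545 to 0.273) and with replicate 1 alone (0.294). Of 9 genes of plasminogen activation 1 was lower in males, Serpinf1 at -0.65 (adjusted p = 8.74e-06), which encodes PEDF, a serpin with no protease inhibition, and the list's median was 0.05. Of 17 other matrix-degrading enzymes and their helpers 1 was higher, the collagen propeptidase enhancer Pcolce2 at 0.45 (SD 0.12, adjusted p = 0.000249), and 4 were lower. They included the carboxypeptidase relative Cpxm2 at -1.0 (SD 0.39), cathepsin S (Ctss) at -0.37 and Pcolce at -0.31, with a list median of -0.05. Over all probes 3.11% were higher and 3.08% lower in males. The fibroblast, smooth muscle and duct markers given above, and the immune markers, with 3 of 9 genes lower in males, moved with the same pools, and their part was not tested.

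**Figure D4:**
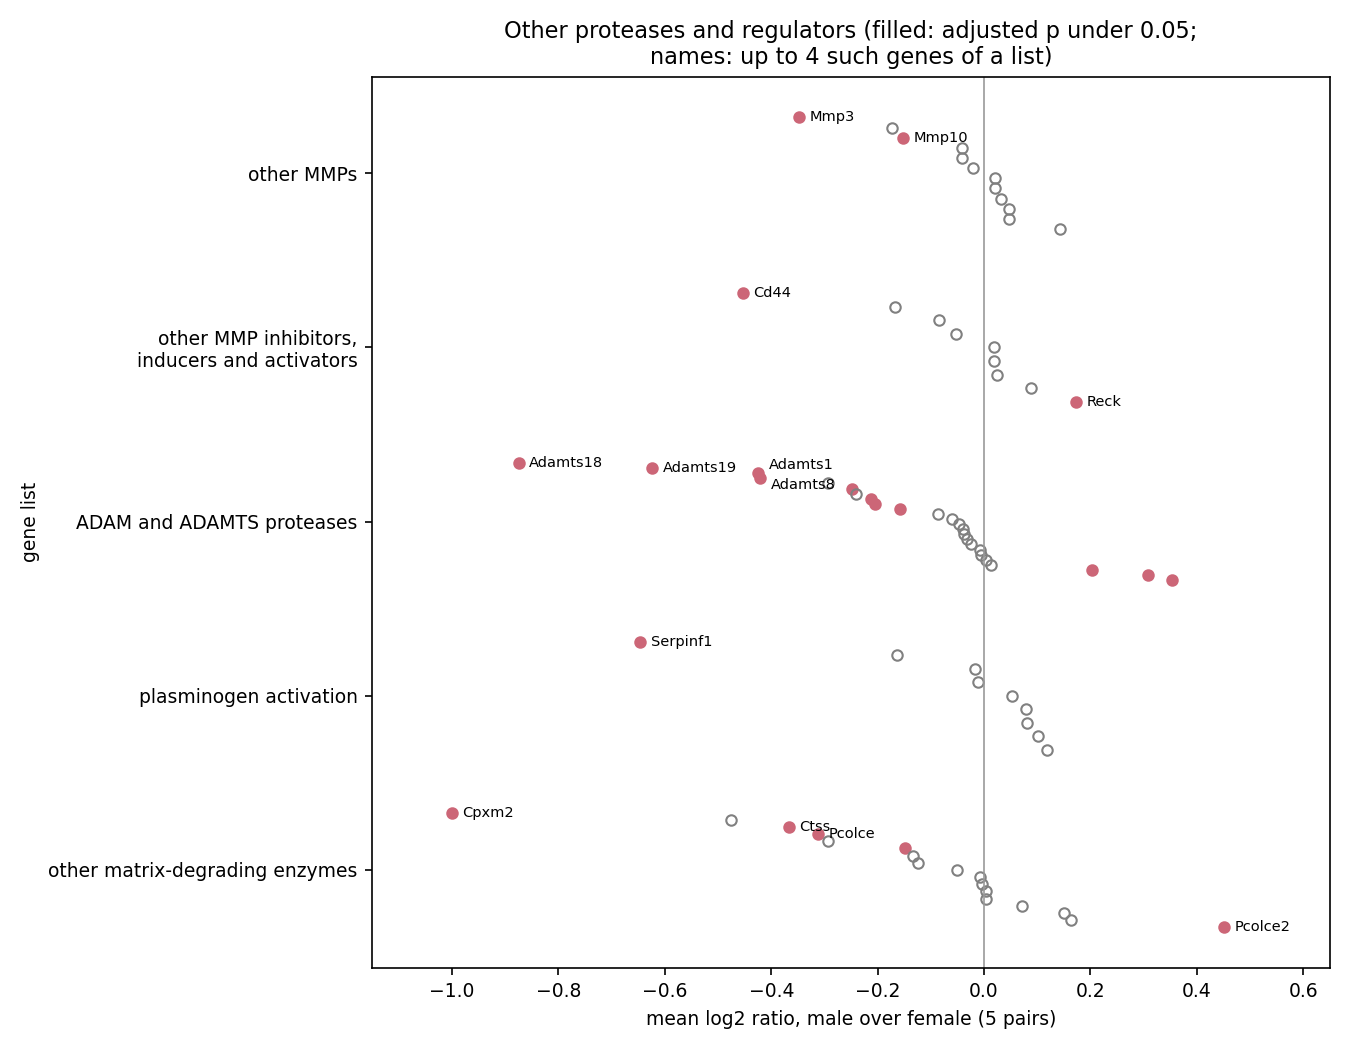
Mean log2 ratio of male over female (x axis, 5 pairs) of 71 other proteases and regulators in 5 lists (y axis, genes sorted within a list). Filled points passed an adjusted p of 0.05, 5 above 0 and 16 below, and up to 4 of them are named in each list. Cpxm2 at -1.0 and Adamts18 at -0.88 are farthest below 0, and Pcolce2 at 0.45 is farthest above.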

How the data were processed

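RNA of paired pools was measured on 24 Agilent 2-colour arrays, each pair on 2 arrays with dyes exchanged. Per the file headers, the deposited scanner files are output of Agilent Feature Extraction 7.5.1 and give spot intensity and local background in both channels, a log10 ratio of Cy5 over Cy3, and flags. The deposited series matrix gives ratios taken as log2 for 41174 probes. Its column medians were -0.0112 to 0.0108, its signs were already turned on swapped arrays, and how the authors centred and scaled it is not given in the sources used here. Flags set by the authors' software were used only as filters.

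Mean signals were corrected with normexp (offset 50) in limma 3.58.1 (R 4.3.3; files read with data.table, version 1.17.8) and loess-normalised within arrays, with control spots at weight 0 and outlier spots left out. Levels come from Aquantile scaling after loess. Spots of a probe, then both arrays of a pair, were averaged to 12 pairs. A probe was kept if a channel was well above background on 6 of 24 arrays, which left 35477. One limma fit with a mean per comparison was used, two-sided, with Benjamini-Hochberg adjustment over all kept probes at 0.05. The labels name separate pools. P-values and 95% intervals rest on the spread between pairs of pools, pooled over all 3 comparisons and drawn by limma towards that of all kept probes. Each SD is that of 1 comparison. For gene lists the brightest probe stood for a gene. The fit was tested on simulated data.

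The members and lists were chosen with earlier results of these data known. All 9 genes and their probes are named. From a list at most the 4 largest changes past the threshold are named per comparison, and 3 genes nearest in Pearson r to the brightest probe of each called gene. Sequences are from RefSeq, GRCm38.p6.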

Additional observations from a re-analysis of the deposited data

Results flagged for a closer look

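Between comparisons the test of the difference itself singled out 3 genes. The Mmp7 ratio of male over female exceeded its DHT ratio by 1.38 at 12 h and by 1.77 at 6 h on the log2 scale (limma adjusted p = 0.000735 and 1.73e-05), with all 5 male to female pairs above all 7 DHT pairs. The Mmp16 probe a ratio differed from its 6 h ratio by -0.62 (adjusted p = 0.00114) and the Mmp14 probe a ratio by -0.27 (adjusted p = 0.0294). Per the labels each comparison was hybridised on its own day and the embryos differed in age and treatment, so these cannot be told apart. The vehicle pools of 6 h replicates 2, 3 and 4 also held Y-linked RNA. In these pairs the Mmp7 ratio was -0.30, -0.19 and -0.24, against 0.06 in replicate 1. The part of that RNA in the differences from the 6 h ratio was not tested. No pair of pools stood apart in the 28 groups of 4 or 5 ratios examined for a single far sample.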

How the results depend on the processing

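Mmp7 and Mmp16 probe a passed the male to female test in all 20 alternatives, whereas Mmp14 probe a passed in 10. The number of the 14 probes called in males over females was 2 to 4, against 3, including 2 without replicate 3 or 4 and 4 without replicate 5. At 6 h it was 0, or 1 with a dye term and pair as random block, with the day of image analysis as a block or on the arrays without dye swap, and 2 on swapped arrays only. At 12 h it was 0, or 2 on unswapped and 1 on swapped arrays only. Between male to female and 12 h it was 1, or 2 with median centring, with the dye term and without replicate 5. Between male to female and 6 h it was 3, or 2 in 10 alternatives. Array-level fits left out Mmp2, which had a missing spot. The day as a block in males over females rests on 8, 1 and 1 arrays.

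The count of all probes called at 6 h was 599, but 269 with background subtracted, 271 with median centring (9 higher, against 161 of 599), 50 with the scanner's ratio, 996 with the series matrix, 312 fitted alone, 1535 with the dye term, 1539 with the day as a block, 5395 and 4545 on unswapped and swapped arrays only, 2 with replicate 1 only, and 35 to 350 leaving out 1 replicate. At 12 h it was 98, but 8 without background correction, 7 with background subtracted, 28 with median centring or a stricter filter, 172 with no filter, 306 with the dye term, 4864 and 1940 on unswapped and swapped arrays only, and 0 with the series matrix, fitted alone, with a trended spread or leaving out any 1 replicate. In males over females it was 2197, but 1017 fitted alone, 4085 on swapped arrays only, and 1326 (without replicate 4) to 2121 (without replicate 5) leaving out 1 replicate.

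With the replicate block the calls among the 14 probes were the same in number, 3, 0 and 0, and all probes called were 2307 in males over females, 176 at 6 h and 5 at 12 h. Pairs that share a number correlated at -0.061 to 0.272, with 6 of 10 over 0.1, so the numbers were not taken to pair the pools. The cause of these changes was not tested. Dim spots limit Mmp9 and Mmp16 probe b, and 3 to 5 pairs limit the precision of all ratios. Timp1 probes b and c were dim as well. So was Mmp7 outside the male pools, with group means of 6.30 to 6.92, though it was well above background on every array. Over the other settings its log2 ratio ran from 1.43 to 2.36 in males over females. It ran from 0.03 to 0.45 at 12 h and from -0.38 to 0.06 at 6 h.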
